A study of Mus musculus with 18 samples.

Results

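The genes of the cytosolic ribosomal proteins were followed across ventricular myocardium from 4 groups of mice. They were chosen by name, as genes whose symbol begins with Rpl or Rps and a number, together with Rpsa and the stalk genes Rplp0 and Rplp2, leaving out the Rps6k kinases, and each was read from its probe set with the highest mean signal. The rule found 51 of the 18193 genes that had a probe set with a single symbol, and 47 of the 51 were bright enough to be tested, among 13359 genes tested in all. The leptin group held 5 ob/ob arrays from mice given recombinant mouse leptin by osmotic mini-pump for 1 month. The restricted group held 5 ob/ob arrays from mice whose food was limited for 1 month to the intake of the leptin mice. The ad libitum group held 4 ob/ob arrays from freely fed mice, and the wild-type group held 4 arrays from C57Bl/6J mice. All 3 ob/ob groups carry the ob mutation, which removes functional leptin in the whole animal, on the C57Bl/6J background. The labels put every group at 6 months of age, although the series text allows up to 8 months for wild type and can be read as adding the treatment month, and no pump is named for groups other than leptin. Nothing in the labels says that each array is a separate animal, so the p-values may reflect technical spread alone.

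Ribosomal proteins form the shell of the small and large ribosomal subunits around the ribosomal RNA, and a cell makes them in matched amounts because each ribosome carries about one copy of most of them. Their mRNAs are among the most abundant in a cell, and most begin with a run of pyrimidines, the terminal oligopyrimidine tract, through which the mTORC1 kinase controls how much of the mRNA is translated. In the heart, ribosome content sets the capacity for protein synthesis and rises when the muscle grows. A few subunit proteins have a paralog encoded by another gene, and Rpl3l, the paralog of Rpl3, is found in heart and skeletal muscle.

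The 51 genes fell into 22 large-subunit genes, 21 small-subunit genes, 6 paralogs (Rpl3l, Rpl22l1, Rpl7l1, Rpl39l, Rps27l and Rps4l), Rps19bp1, which encodes a binding partner of the Rps19 protein and no subunit, and the pseudogene Rps15a-ps6. Rpl7l1 was counted with the paralogs by name, although it encodes a ribosome biogenesis factor and no subunit protein. The genes not tested were Rpl14, Rps16, Rpl39l and Rps15a-ps6, whose mean signals over the 18 arrays were 13.2, 0.837, 13.2 and 2.76. Signals are MAS5 values, in which each array was scaled to the same trimmed mean of 100.001. By mean signal over the 18 arrays, Rps29, Rplp0 and Rpl38 headed the list and Rpl12, Rps19bp1 and Rps25 closed it among the tested genes, but a signal depends on the probe set, so this order is no order of mRNA amounts. The mean exceeded 1000 for 36 tested genes and was below 100 for 4, which were Rpl12, Rps19bp1, Rps25 and Rps27. Subunit genes such as Rpl3, Rpl5, Rplp1 and Rps27a were not analysed here. A further 110 probe sets that match a ribosomal protein gene together with other symbols were kept out of the tests.

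The ventricular markers Myl2 and Myh6 had signals of at least 6368 and 6403 on every array. None of the 9 ventricular cardiomyocyte markers was called different in any of the 6 comparisons (limma). At an unadjusted p under 0.05, however, 7 were higher in restricted, 3 in leptin and 1 in ad libitum, each against wild type. Atrial markers were uneven within the restricted group. Their summed signal was 14304 and 14725 in restricted replicates 2 and 3, against 519 to 3059.6 on the other 16 arrays. Ribosomal protein genes called in a comparison with the restricted group are therefore also given without these 2 arrays. The ratio of the signals of 3′ and 5′ control probe sets spanned 0.797 to 0.868 for Gapdh and 1.13 to 1.41 for actin. Leptin replicate 3 had the lowest signal of its group for 37 of the 47 ribosomal protein genes, and its 99th percentile of signal over all other genes was also the lowest of its group, at 3398 against 3554 to 4141. Results of the leptin group are given with and without it where it changes them.

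A level was set for each array as the median over the 47 genes of the log2 signal relative to each gene's mean over the 18 arrays, and it is a summary without a test. The level was 0.16, 0.25, -0.11, 0.15 and 0.07 in the leptin arrays. It was -0.05, 0.05, -0.07, 0.12 and 0.07 in the restricted arrays. It was -0.02, -0.20, -0.05 and -0.13 in the ad libitum arrays and -0.03, -0.12, -0.06 and -0.03 in the wild-type arrays. The leptin arrays other than replicate 3 were above all ad libitum and all wild-type arrays, while the restricted arrays overlapped with every other group. The group means were 0.10 ± 0.14 in leptin (SD, n = 5), 0.02 ± 0.08 in restricted (SD, n = 5), -0.10 ± 0.08 in ad libitum (SD, n = 4) and -0.06 ± 0.04 in wild type (SD, n = 4). The small-subunit and large-subunit genes gave nearly the same group means, at 0.12 and 0.10 in leptin and at -0.13 and -0.09 in ad libitum.

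**Figure D1:**
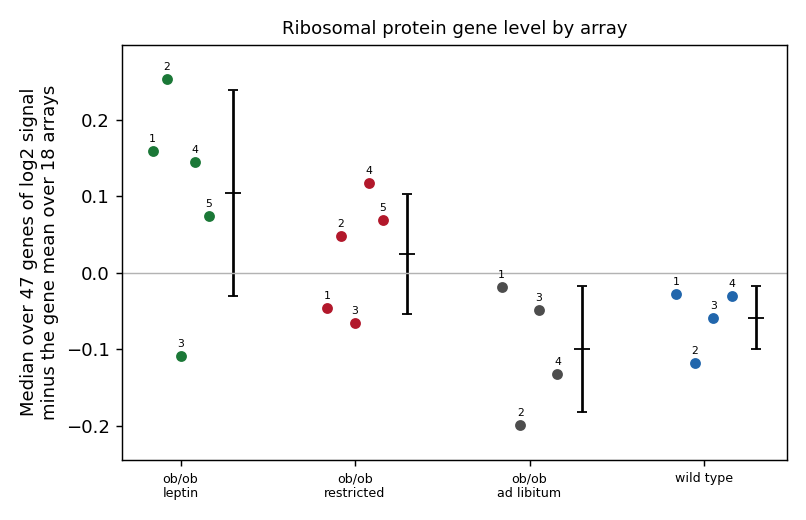
Level of the ribosomal protein genes on each array, as the median over 47 genes of log2(signal + 5.13) minus the gene's mean over 18 arrays; each point is an array with its replicate number, and bars give the group mean ± SD. The leptin arrays other than replicate 3, at -0.11, lie above every ad libitum and wild-type array, and the ad libitum arrays lie between -0.20 and -0.02.

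The first question was whether leptin given to ob/ob mice changed these mRNAs relative to free feeding. After leptin, 41 of the 47 genes were above their ad libitum level, with a median log2 change of 0.21, against a median of -0.01 over all tested genes, of which 47.4% were above 0. None of the 47 passed an adjusted p of 0.05 (limma, Benjamini-Hochberg over all tested genes), where 0.644% of all tested genes did. At an unadjusted p under 0.05, 25 genes were higher and 1 was lower, against 6.91% and 6.64% of all tested genes. No cell type marker was called in this comparison (limma). Of 7 macrophage markers 7 were above 0, with 4 at an unadjusted p under 0.05 and a median log2 change of 0.28. Fibroblast markers were above 0 for 6 of 7, with a median of 0.14, and endothelial markers for 4 of 6, with a median of 0.21. The erythroid marker Alas2 was at -1.07 (adjusted p = 0.293, limma). The part of these markers was not tested.

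Among small-subunit genes, Rpsa had the smallest p. Its protein is a small-subunit component that is also known as a laminin receptor. Its signal was 2384, 2666, 1968, 2300.1 and 2559 in the leptin arrays, against 1872, 1611, 1868 and 1581 in the ad libitum arrays. Every leptin array was above every ad libitum array. The log2 change was 0.45 ± 0.10 (SE), with an adjusted p of 0.0574 (limma). Rps4x, the X-linked gene of a small-subunit protein, had 3784, 4084, 3063, 3806 and 3616 in the leptin arrays, against 3035, 2743, 2999 and 2854 in the ad libitum arrays. These groups did not overlap either, and the log2 change was 0.33 ± 0.08 (SE, adjusted p = 0.0739, limma). With the mean of all its probe sets the change of Rps4x was 0.05 (adjusted p = 0.916, limma), but only 1 of its 2 probe sets was above the filter on low values. Rps19, which is mutated in Diamond-Blackfan anaemia in humans, had 1889, 1849, 1341, 1567 and 1712 in the leptin arrays, against 1414, 1139.8, 1348 and 1243 in the ad libitum arrays. Leptin replicate 3 lay within the ad libitum range for Rps19, and the log2 change was 0.37 ± 0.10 (SE, adjusted p = 0.102, limma).

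Without leptin replicate 3, these 3 genes passed the threshold, Rpsa at an adjusted p of 0.0299, Rps4x at 0.0212 and Rps19 at 0.0328 (limma). That array was singled out for its low signal in these same genes, so leaving it out was bound to widen their changes and is no support. With other single arrays left out, the adjusted p reached 0.174 for Rpsa, 0.217 for Rps4x and 0.272 for Rps19 (limma). Rps3, whose protein lines the mRNA entry site, was the remaining gene with every leptin array above every ad libitum array, and its log2 change was 0.31 ± 0.08 (SE, adjusted p = 0.112, limma). That change was -0.14 with the mean of all its probe sets, since its 2 dimmer probe sets had changes of -0.71 and -0.01. Across all tested genes, 2.81% were higher and 2.53% lower without overlap in this comparison. For the 20 tested small-subunit genes the median log2 change was 0.26, and 19 were above 0. Rps27, at -0.91 ± 0.30 (SE, adjusted p = 0.18, limma), was the exception. Its dim probe set read 48.0, 66.6, 48.5, 109 and 69.6 in the leptin arrays, against 138, 144, 125 and 107 in the ad libitum arrays.

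Large-subunit genes had a median log2 change of 0.21, and 20 of the 21 tested were above 0. Rpl35, which lies near the exit of the tunnel through which the new protein leaves, averaged 2285 ± 272 in leptin and 1801 ± 169 in ad libitum (SD, n = 5 and 4), a log2 change of 0.34 (adjusted p = 0.123, limma). Among the stalk genes, whose proteins recruit the elongation factors, Rplp2 averaged 4158 in leptin and 3414 in ad libitum, and Rplp0 averaged 5044 in leptin and 4809 in ad libitum. Their log2 changes were 0.28 and 0.07, with adjusted p-values of 0.214 and 0.766 (limma). Rpl11, whose free protein binds the p53 regulator Mdm2, changed by 0.18 (adjusted p = 0.429, limma). Rpl39, a short protein of the exit tunnel, was the large-subunit gene below 0, at -0.25 (adjusted p = 0.444, limma), with every leptin array below every ad libitum array. The gap was narrow, as the highest leptin array read 167.9 and the lowest ad libitum array 168.2. The 5 tested paralogs had a median of -0.07.

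**Figure D2:**
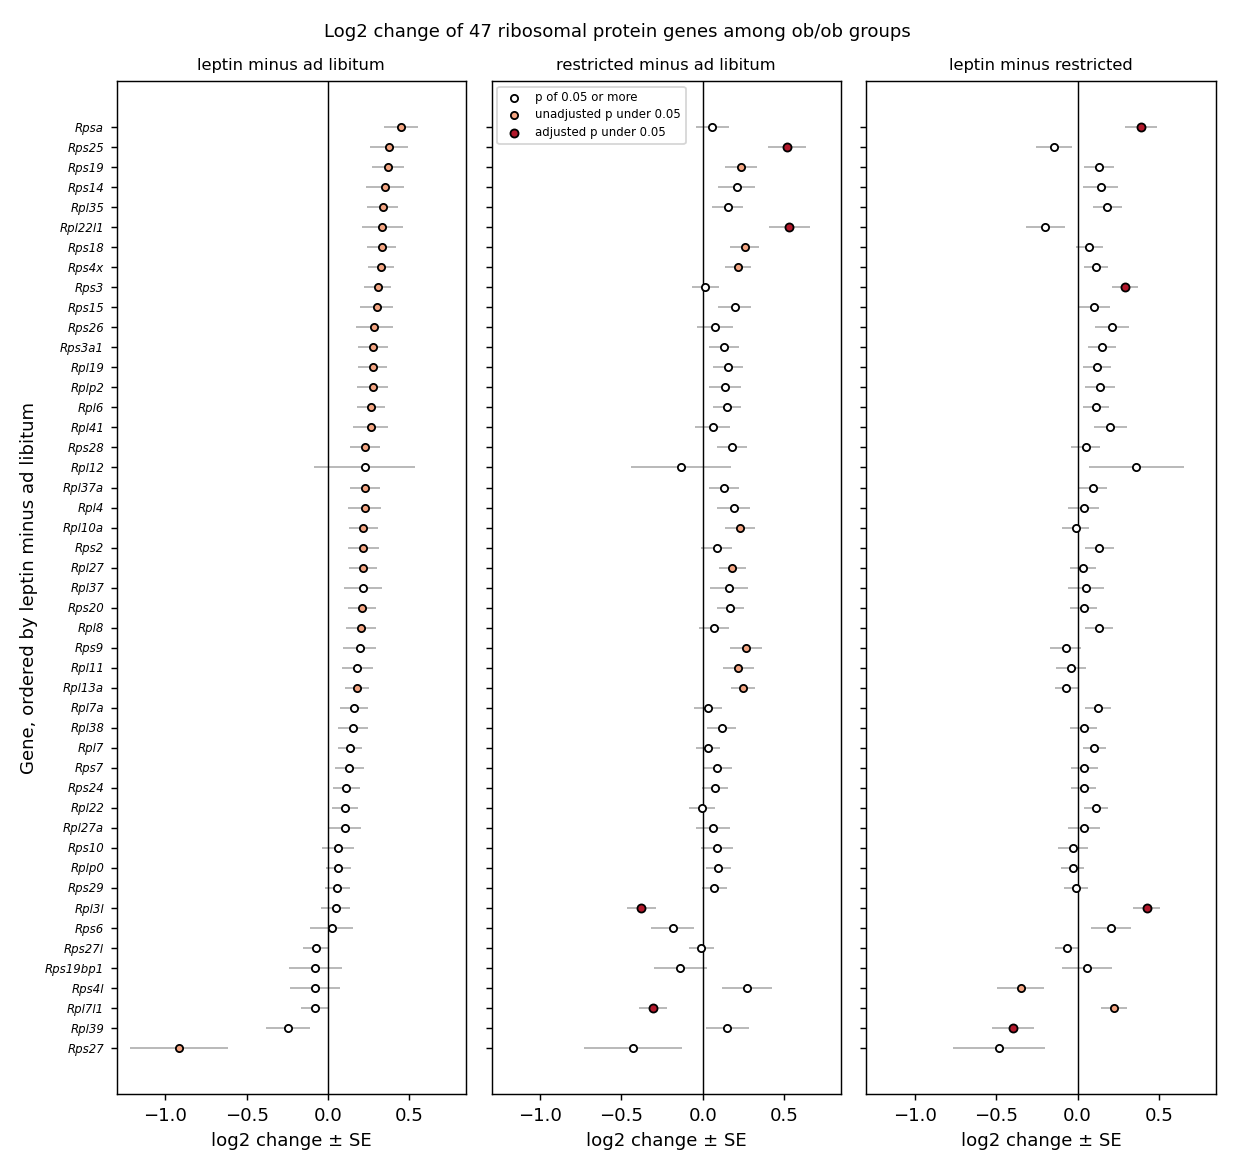
Log2 change ± SE of the 47 tested genes for leptin minus ad libitum, restricted minus ad libitum and leptin minus restricted, with genes ordered by the first. The leptin minus ad libitum changes lie above 0 for 41 genes and pass no adjusted test, while restricted minus ad libitum and leptin minus restricted have 4 called genes each; the contrasts share arrays.

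RefSeq promoters (GRCm38.p6, 250 bases before to 50 after the annotated start) matched 44 of the 51 genes. A run of at least 8 C or T bases on the sense strand, in the window from 20 bases before to 30 after the start, was present in 21 of the 44, or 47.7%, against 18.8% of 27025 genes. The windows of genes the results turn on are shown so that the start regions can be compared, 5′ to 3′ on the sense strand, with the longest C or T run in capitals. The first 6 belong to small-subunit and large-subunit genes and the last 3 to paralogs.
Rpsa, chr9:120127746-120127795, plus strand: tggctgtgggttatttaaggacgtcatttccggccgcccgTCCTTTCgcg
Rps4x, chrX:102189362-102189411, minus strand: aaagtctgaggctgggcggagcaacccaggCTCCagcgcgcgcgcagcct
Rps3, chr7:99483680-99483729, minus strand: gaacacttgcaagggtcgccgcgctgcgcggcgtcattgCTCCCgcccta
Rps18, chr17:33955636-33955685, minus strand: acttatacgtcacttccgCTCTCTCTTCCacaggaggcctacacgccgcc
Rpl35, chr2:39005102-39005151, minus strand: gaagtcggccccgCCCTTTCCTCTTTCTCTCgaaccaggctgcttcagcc
Rps25, chr9:44407694-44407743, plus strand: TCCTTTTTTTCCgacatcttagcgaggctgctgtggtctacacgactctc
Rpl22l1, chr3:28805488-28805537, plus strand: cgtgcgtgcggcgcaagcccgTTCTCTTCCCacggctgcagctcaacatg
Rpl7l1, chr17:46782627-46782676, minus strand: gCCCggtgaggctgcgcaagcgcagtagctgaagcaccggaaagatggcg
Rpl3l, chr17:24727806-24727855, plus strand: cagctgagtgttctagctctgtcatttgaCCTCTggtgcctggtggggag

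The Rpl35 window held a run of 18 pyrimidines and that of Rpl22l1 a run of 10, whereas the longest run in the Rpl3l window had 5 bases and that in the Rps4x window 4. Of 41 tested genes with a window, the 20 with a run of at least 8 had a median log2 change of 0.17 after leptin against ad libitum, and the 21 with a shorter run had 0.23, so the shift was not larger where the run was long. A run in this window need not begin the mRNA. That of Rps25, with 12 bases from position -20, lies wholly before the annotated start. Genes with a tract at the start of the mRNA were thus not singled out. The letters CCGGAA, searched on both strands of the 300 bases, were found in 26 of 44 promoters, or 59.1%, against 15.2% of all promoters in the table. CTTTCC, searched on both strands of the start window and itself a pyrimidine run on the sense strand, was found in 8, or 18.2%, against 4.52%. AAGATGGC, searched on both strands of the 300 bases, was found in 3, or 6.82%, against 2.88%. These matches describe letters in a window and show no binding.

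The second question was what the matched food intake did without leptin. In the restricted group, 39 of the 47 genes were above the ad libitum level, with a median log2 change of 0.13 under the deposited scaling and 0.03 after quantile normalization, where 29 genes were above 0. Over all tested genes the deposited values gave 49.7% above 0. Rps25 and Rpl22l1 rose, and the paralogs Rpl3l and Rpl7l1 fell. That made 4 called genes of 47, or 8.51%, against 5.42% of all tested genes, of which 2.46% rose and 2.96% fell. After quantile normalization 2 were higher and 1 lower, and with each array centred on its median 2 were higher and none lower. At an unadjusted p under 0.05, 10 genes were higher and 2 lower, against 8.95% and 10.2% of all tested genes.

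Rpl3l, the muscle paralog, fell. Its signal was 1105, 989.6, 932, 1270.3 and 1184 in the restricted arrays, against 1418, 1418, 1449.7 and 1380.4 in the ad libitum arrays. All 5 restricted arrays were below all 4 ad libitum arrays, and the log2 change was -0.38 ± 0.09 (SE, adjusted p = 0.0198, limma), or 1.30-fold lower. Rpl7l1, the paralog of Rpl7, had 218, 186, 211, 226 and 211 in the restricted arrays, against 281, 234, 263 and 266 in the ad libitum arrays. Its groups did not overlap, with a log2 change of -0.31 ± 0.08 (SE, adjusted p = 0.0431, limma), but its 2 other probe sets showed changes of 0.00 and -0.02. Across all tested genes, 4.87% were lower and 4.33% higher without overlap. Rpl7 itself changed by 0.03 (adjusted p = 0.876, limma).

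Rpl22l1, the paralog of Rpl22, had 769, 693, 648, 889 and 720.4 in the restricted arrays, against 648, 476, 467 and 465 in the ad libitum arrays. The ranges met at 648, where ad libitum replicate 1 stood apart from its group, and the log2 change was 0.53 ± 0.13 (SE, adjusted p = 0.0202, limma). Rpl22, which in mice restrains Rpl22l1, averaged 2433 ± 188 in restricted and 2439 ± 169 in ad libitum (SD, n = 5 and 4). Rps25, a small-subunit protein used by some viral internal ribosome entry sites, had 69.7, 86.1, 74.4, 74.0 and 76.4 in the restricted arrays, against 61.6, 50.3, 46.6 and 48.3 in the ad libitum arrays. All its restricted arrays were above all its ad libitum arrays, and the log2 change was 0.52 ± 0.12 (SE, adjusted p = 0.0151, limma) on a dim probe set. Rpl13a, known in human monocytes for a role in interferon responses, came next at 0.25 ± 0.07 (SE, adjusted p = 0.0586, limma), although the mean of all its probe sets gave -0.0076.

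Without restricted replicates 2 and 3, the arrays with high atrial markers, Rpl22l1 alone of the 4 genes stayed past the threshold, and Rpl3l had an adjusted p of 0.139, Rps25 of 0.0893 and Rpl7l1 of 0.201 (limma). With atrial marker signal as a covariate none of the 4 passed. The log2 changes in that fit were 0.41 for Rps25 (adjusted p = 0.133), 0.55 for Rpl22l1 (adjusted p = 0.0783), -0.25 for Rpl3l (adjusted p = 0.183) and -0.24 for Rpl7l1 (adjusted p = 0.243, limma). Markers of other cells also differed in the restricted group. The summed fibroblast marker signal was 4119 to 5454 in restricted arrays, against 5418 to 6294 in ad libitum arrays. Of 7 fibroblast markers 1 was above 0, and 5 were called lower at an adjusted p under 0.05 (limma). The summed macrophage marker signal was 1285 to 1735 in restricted arrays, against 1886 to 2425 in ad libitum arrays. Of 7 macrophage markers 0 were above 0, and 3 were called lower. The summed endothelial marker signal was 1275 to 1656 in restricted arrays, against 1616 to 2239.9 in ad libitum arrays. Of 6 endothelial markers 1 was above 0, and 2 were called lower. For smooth muscle and pericytes the sum was 4672 to 5529 in restricted arrays, against 4799.5 to 5106 in ad libitum arrays. Of these 5 markers 4 were above 0, and 1 was called higher. Over all tested genes 2.46% were called higher and 2.96% lower. Their part in these results was not tested, and in bulk tissue fewer cells of a type and less RNA per cell cannot be told apart.

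**Figure D3:**
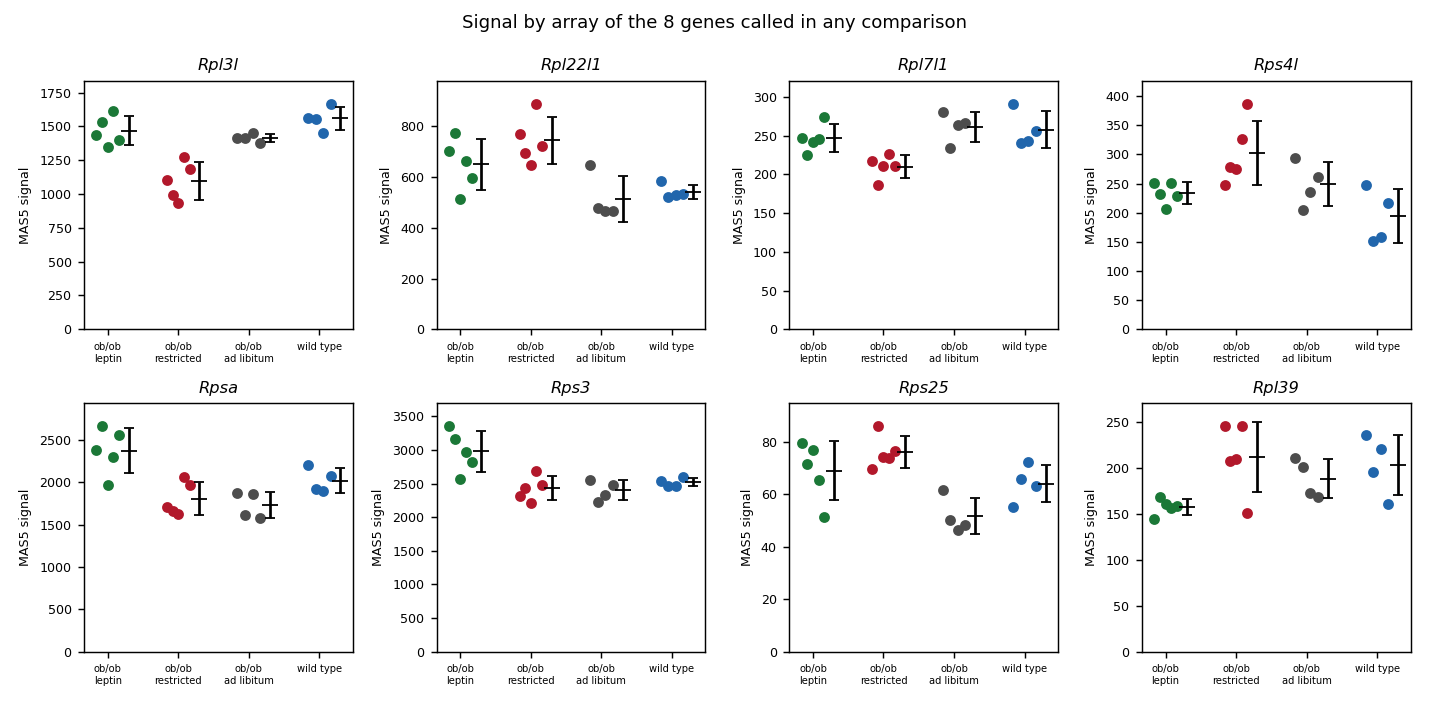
MAS5 signal on each array of the 8 genes that passed an adjusted p of 0.05 in any comparison, each point an array and each bar the group mean ± SD. The 5 restricted arrays of Rpl3l, from 932 to 1270.3, lie below every array of the other groups, and the 5 leptin arrays of Rpl39, from 144 to 168, lie below all but 2 of the other arrays.

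Leptin and restriction were compared directly because food intake was matched. Rpl3l, Rpsa and Rps3 were higher in leptin, and Rpl39 was lower. These were 4 called genes of 47, or 8.51%, where 13.6% of all tested genes were called, with 7.91% higher and 5.73% lower, so the share among ribosomal protein genes was no larger than among the rest. At an unadjusted p under 0.05, 4 were higher and 2 lower, against 14.3% and 12.7% of all tested genes. Of the 47, 34 were above 0, against 46.1% of all tested genes, and the median log2 change was 0.07. Rpl3l had 1437, 1535, 1351, 1614 and 1401 in the leptin arrays, against 1105, 989.6, 932, 1270.3 and 1184 in the restricted arrays. It was the gene among the 47 without overlap in this comparison, as were 6.3% of all tested genes in this direction and 4.57% in the other, and its log2 change was 0.43 ± 0.08 (SE, adjusted p = 0.00323, limma).

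Rpsa had 2384, 2666, 1968, 2300.1 and 2559 in the leptin arrays, against 1713, 1665, 1630.5, 2064 and 1971 in the restricted arrays. The groups overlapped through leptin replicate 3, and the log2 change was 0.39 ± 0.10 (SE, adjusted p = 0.0124, limma). Rps3 had 3358, 3166, 2574, 2975 and 2829 in the leptin arrays, against 2323, 2440.1, 2216, 2687 and 2482 in the restricted arrays. Its log2 change was 0.29 ± 0.08 (SE, adjusted p = 0.0205, limma), and it was -0.15 with the mean of all its probe sets. Rpl39 averaged 158 ± 8.64 in leptin and 212 ± 38.5 in restricted (SD, 5 arrays in either group). Its log2 change was -0.40 ± 0.13 (SE, adjusted p = 0.0473, limma). Rpl39 was called in 7 of 22 alternatives. With any leptin array left out its adjusted p was 0.0654 to 0.101, being 0.0729 without leptin replicate 3 (limma). Restricted replicate 5, at 152, lay inside the leptin range for Rpl39.

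Without restricted replicates 2 and 3, Rpl3l stayed called at an adjusted p of 0.0334, while Rpsa had 0.111, Rps3 0.118 and Rpl39 0.143 (limma). After quantile normalization 6 genes were higher and 1 lower, in place of 3 higher and 1 lower. Markers of other cells moved with this comparison too. Above 0 were 6 of 7 fibroblast, 7 of 7 macrophage, 6 of 6 endothelial and 2 of 5 smooth muscle and pericyte markers. Called higher in leptin at an adjusted p under 0.05 (limma) were 5, 6, 2 and 1 of them in that order. None was called lower, and over all tested genes 7.91% were called higher and 5.73% lower. The summed endothelial signal was 1702 to 2199.5 in leptin arrays, against 1275 to 1656 in restricted arrays. The part of these markers was not tested.

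The third question was how the ob/ob groups stood against wild type. In leptin against wild type none of the 47 genes was called, where 0.00749% of all tested genes were, and 40 were above 0, against 48.9% of all tested genes. The median log2 change was 0.17 under the deposited scaling and 0.05 after quantile normalization. All 9 ventricular cardiomyocyte markers were also above 0, with a median of 0.22 and 3 at an unadjusted p under 0.05 (limma). The 99th percentile of log2 signal over all other genes was 11.90 ± 0.13 in leptin and 11.77 ± 0.03 in wild type (SD, n = 5 and 4). An upward shift was thus not particular to ribosomal protein genes, and its cause was not tested. Rpl6, a large-subunit protein, had the smallest p, averaging 2836 ± 299.7 in leptin and 2325 ± 121 in wild type (SD, n = 5 and 4), a log2 change of 0.28 (adjusted p = 0.345, limma). At an unadjusted p under 0.05, 16 genes were higher and 1 lower, against 4.96% and 5.05% of all tested genes. No member separated the groups without overlap, as 1.59% of all tested genes did upward and 1.65% downward.

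In restricted against wild type, Rps4l and Rpl22l1 rose and Rpl3l and Rpl7l1 fell. All 4 called genes were in the paralog class, of which 5 were tested and which holds Rpl7l1 by name. Of the 41 subunit genes outside that class, 0 were called at an adjusted p of 0.05 (limma), where 3 had an unadjusted p under 0.05. Over all tested genes 11.3% were called, 5.02% higher and 6.24% lower. Of the 47, 4 were higher and 3 lower at an unadjusted p under 0.05, against 11.6% and 12.9%, and 6 were higher and 3 lower without overlap, against 6.68% and 6.89%. The share above 0 was 37 of 47, against 50.3%. Rpl3l had 1105, 989.6, 932, 1270.3 and 1184 in the restricted arrays, against 1559, 1555, 1453 and 1669 in the wild-type arrays. The log2 change was -0.51 ± 0.09 (SE, adjusted p = 0.00155, limma), or 1.43-fold lower. Rps4l, the paralog of Rps4x, had 248, 278, 274, 326 and 387 in the restricted arrays, against 248, 152, 158 and 217 in the wild-type arrays. Its lowest restricted array was just above its highest wild-type array, and the log2 change was 0.64 ± 0.15 (SE, adjusted p = 0.0125, limma). Rpl22l1 was 0.45 ± 0.13 higher (SE, adjusted p = 0.0308, limma) and Rpl7l1 was at -0.29 ± 0.08 (SE, adjusted p = 0.0359, limma). Rps6, the small-subunit protein that S6 kinase phosphorylates, averaged 120 ± 13.5 in restricted and 154 ± 11.5 in wild type (SD, n = 5 and 4) on a dim probe set (log2 change -0.36, adjusted p = 0.0899, limma). The median of the 47 was 0.09 under the deposited scaling and -0.05 after quantile normalization, so its direction depended on the scaling.

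Without restricted replicates 2 and 3, Rps4l (adjusted p = 0.0305), Rpl22l1 (adjusted p = 0.0369) and Rpl3l (adjusted p = 0.0133) stayed past the threshold against wild type, and Rpl7l1 had an adjusted p of 0.171 (limma). Rpl7l1 was also at 0.0586 with the atrial covariate and at 0.238 with the mean of all its probe sets, and it was called in 9 of 21 alternatives. Of 7 fibroblast markers 1 was above 0, and 5 were called lower (limma). Their summed signal was 4119 to 5454 in restricted arrays, against 5220.3 to 9888 in wild-type arrays. Of 7 macrophage markers 0 were above 0, and 6 were called lower. Their summed signal was 1285 to 1735 in restricted arrays, against 2061 to 3542 in wild-type arrays. Of 5 smooth muscle and pericyte markers 3 were above 0, with 1 called higher and 1 lower. Over all tested genes 5.02% were called higher and 6.24% lower. The erythroid marker Alas2 was called lower, at -1.48 on the log2 scale (adjusted p = 0.0380, limma). It read 24.9 to 241 in restricted arrays, against 184 to 235 in wild-type arrays, so the ranges overlapped. None of the 6 endothelial markers was called, although 3 were lower at an unadjusted p under 0.05. The part of these markers was not tested.

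In ad libitum against wild type, none of the 47 was called, where 0.299% of all tested genes were. The median log2 change was -0.04, and 16 genes were above 0, against 50.5% of all tested genes. Rps25 (log2 change -0.29, adjusted p = 0.433) and Rps4l (log2 change 0.37, adjusted p = 0.44) had the smallest p in each direction (limma). At an unadjusted p under 0.05, 1 gene was higher and 2 were lower, against 5.14% and 5.16% of all tested genes. Rpsa and Rpl3l were lower without overlap, as were 3.41% of all tested genes, with 3.65% higher. For Rpsa, 4 ad libitum arrays at 1581 to 1872 were all below the 4 wild-type arrays at 1896 to 2203, and its log2 change was -0.22 (adjusted p = 0.503, limma).

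**Figure D4:**
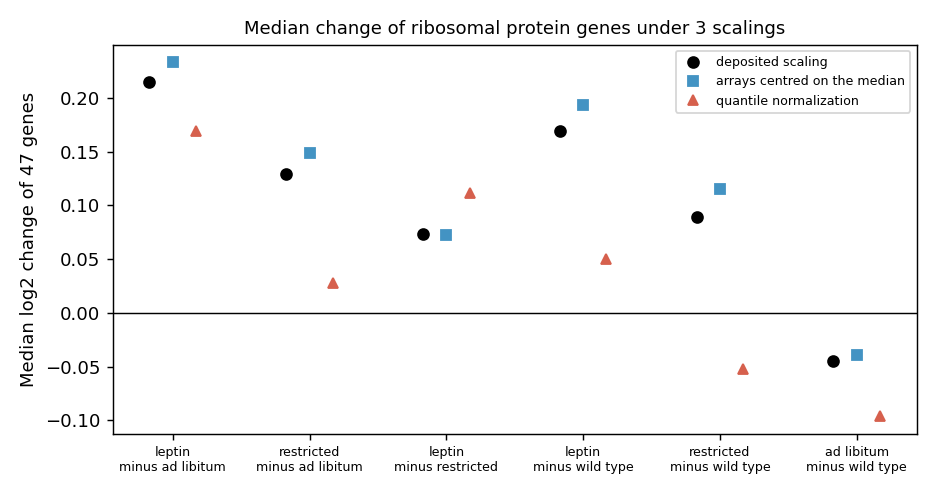
Median log2 change of the 47 genes in the 6 comparisons under the deposited scaling, with each array centred on its median, and after quantile normalization. Leptin minus ad libitum stays at 0.17 or above in all 3, and restricted minus wild type is 0.09 with the deposited scaling and -0.05 after quantile normalization.

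The paralog pairs with both members tested are set side by side here. In restricted against ad libitum, Rpl22l1 was at 0.53 and Rpl22 at 0.00, Rpl7l1 was at -0.31 and Rpl7 at 0.03, and Rps4l was at 0.27 and Rps4x at 0.22. Rps27l, a p53 target in human cells, had log2 changes between -0.07 and 0.01 in the 6 comparisons and was not called in any. Rps27, on a dim probe set, was at -0.43 in restricted against ad libitum, where Rps27l was at -0.01. In leptin against ad libitum Rps27 was at -0.91 and Rps27l at -0.07, and Rps27 was not called in any comparison either. The difference between the members of a pair was not itself tested. Rps19bp1 was not called in any comparison, with log2 changes between -0.14 and 0.18.

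**Figure D5:**
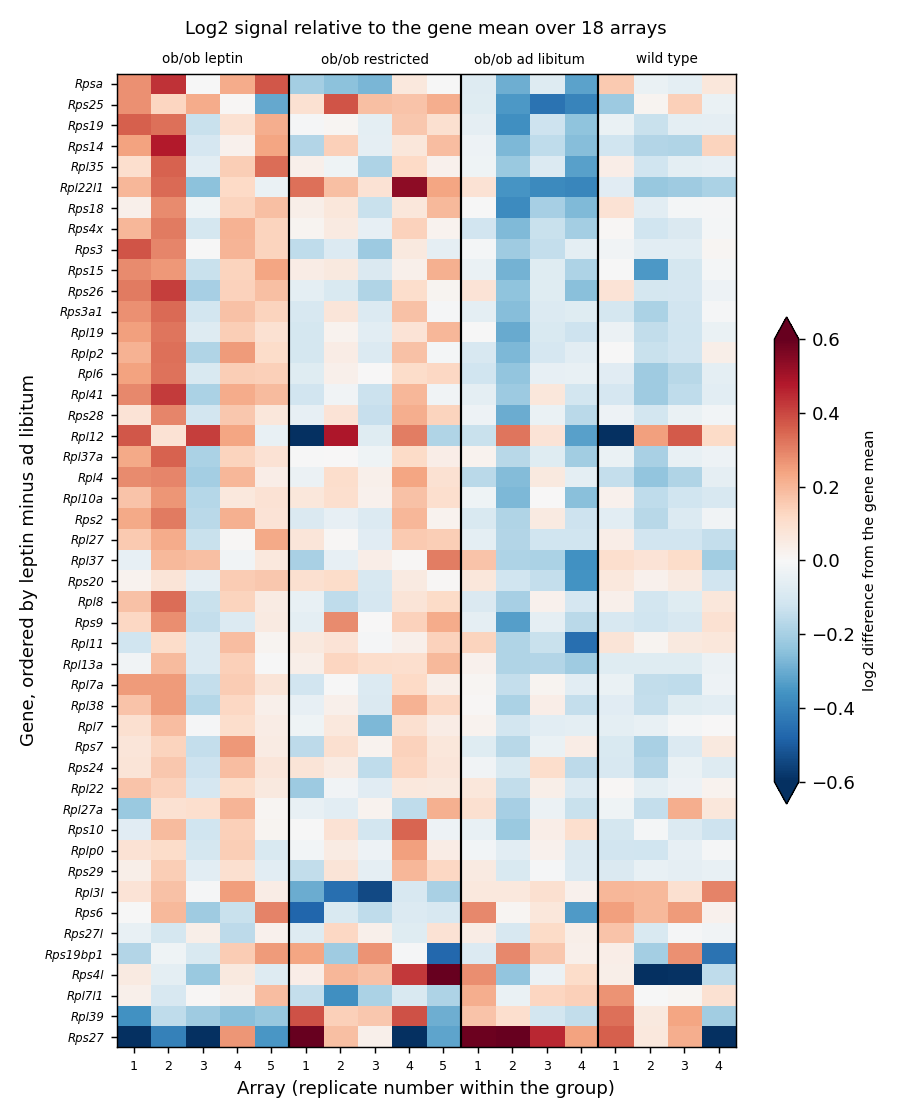
Log2 signal of each of the 47 genes (rows, ordered by leptin minus ad libitum) on each of the 18 arrays (columns, grouped), relative to the gene's mean, with colours ending at 0.6 on either side. Most subunit genes share one colour within an array, with leptin replicate 2 the highest and ad libitum replicate 2 the lowest, while Rpl3l, Rps4l, Rpl39 and Rps27 in the bottom rows follow other patterns.

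Other genes of the translation machinery were read from lists. For these lists, higher, lower, rose and fell count genes called at an adjusted p under 0.05, unless an unadjusted p is named. Values without restricted replicates 2 and 3 are not given for these genes. Of 9 genes on the elongation factor list, 0 were called in leptin against ad libitum (limma), and the median log2 change was 0.18. At an unadjusted p under 0.05, 2 of them were higher, against 6.91% of all tested genes. In restricted against ad libitum 1 of the 9 was called higher and none lower, against 2.46% and 2.96% of all tested genes. That gene was Eef2k, which encodes no elongation factor but the kinase that inhibits elongation factor Eef2. Eef2k had a mean of 446 in restricted and 241 in ad libitum (log2 change 0.87, adjusted p = 7.92e-04, limma). It averaged 210 in leptin against 446 in restricted (log2 change -1.08, adjusted p = 3.32e-05, limma). Of 30 initiation factor and poly(A)-binding genes, 2 rose and none fell in restricted against ad libitum, where 2.46% of all tested genes rose and 2.96% fell. In leptin against restricted 2 were higher and 4 lower, where 7.91% of all tested genes were higher and 5.73% lower. The higher genes were Pabpc4 and Pabpc1, whose proteins bind the poly(A) tail and whose own mRNAs have pyrimidine tracts, with log2 changes of 0.51 and 0.35 (adjusted p = 0.00120 and 0.00474, limma). The lower genes were Eif3m at -0.33 (adjusted p = 0.00316), Eif2b1 at -0.35 (adjusted p = 0.0200), Eif2b5 at -0.34 (adjusted p = 0.0261) and Eif2b3 at -0.36 (adjusted p = 0.0347, limma).

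Of 64 ribosome biogenesis genes, 0 were called in leptin against ad libitum (limma), with 4 higher and 5 lower at an unadjusted p under 0.05, against 6.91% and 6.64% of all tested genes, and the median log2 change was 0.00. In leptin against restricted 3 were higher and 4 lower, against 7.91% and 5.73% of all tested genes. Fbl, the methyltransferase of ribosomal RNA, was at 0.40 (adjusted p = 0.00322), Polr1d, a subunit of RNA polymerases I and III, at 0.75 (adjusted p = 0.00456), and Ncl, the nucleolar protein nucleolin, at -0.39 (adjusted p = 0.00749, limma). Of 22 genes of mTORC1 and S6 kinase signalling, 2 rose and none fell in restricted against ad libitum, against 2.46% and 2.96% of all tested genes. Eif4ebp1, which encodes a translation repressor, rose by 0.65 (adjusted p = 0.00196) and Deptor by 0.37 (adjusted p = 0.0428, limma). In leptin against restricted none was higher and 4 were lower, against 7.91% and 5.73% of all tested genes. The 4 were Rps6kb2, Ddit4, Eif4ebp1 and Deptor. In leptin against ad libitum 1 of the 22 was called, where 0.644% of all tested genes were. It was Ddit4, an inhibitor of mTORC1, which was lower in leptin, averaging 547 in leptin and 1622 in ad libitum (log2 change -1.60, adjusted p = 0.0102, limma). Of 10 genes of the MYC and MAX network, 1 rose and none fell in restricted against ad libitum, against 2.46% and 2.96% of all tested genes. It was Myc, a transcription factor known to drive ribosomal protein genes (log2 change 1.27, adjusted p = 0.0483, limma). Its signals were near the floor, averaging 33.2 ± 10.4 in restricted and 12.1 ± 9.7 in ad libitum (SD, n = 5 and 4).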

How the data were processed

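Ventricular RNA of 18 samples was hybridised to arrays of 45101 probe sets, and the authors deposited an intensity per probe set for each sample. The submitters' processing notes name MAS5. No detection calls, scan dates or batches were given in the sources used here. Members and comparison lists were chosen with earlier results of these data known. Gene symbols came from the platform annotation, of which 34945 probe sets had 1 symbol, 932 several and 9160 none. A gene was read from its brightest single-symbol probe set. Values were taken as log2(signal + 5.13), the pseudocount being the 20th percentile of all signals, and genes with a mean log2 value under 4.36, the 40th percentile of probe sets, were left out. limma 3.58.1 (R 4.3.3) was fitted to all 18 arrays with a coefficient per group, followed by eBayes and Benjamini-Hochberg adjustment over the 13359 genes within each of the 6 comparisons, and a gene was called at an adjusted p under 0.05. No 2 arrays held identical values. The replicate numbers did not pair the samples (25 same-number pairs, correlation of deviations -0.18 to 0.34, 1 above 0.1). The code was tested on simulated data. The number of arrays limits the precision.

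Genes with values were named by a rule: in each comparison the members with the smallest p in each direction, up to 6, the brightest and dimmest 3, paralog pairs, well-known members, and the 3 smallest p of each list. Alternatives covered the scaling, pseudocount, filter, choice of probe set, prior, arrays in the fit, atrial marker signal as a covariate, replicate numbers as a block, and leaving out arrays.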

Additional observations from a re-analysis of the deposited data

Results flagged for a closer look

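In 6 of 132 combinations of a gene and a group, the highest or lowest array stood apart from the rest of its group by Dixon's test. Chance gives about 1 in 20. Rpl22l1 in ad libitum read 648 in replicate 1 against 465 to 476 in the other arrays. Rpl13a in ad libitum read 4020 in replicate 1 against 3398 to 3495, and in wild type 3850 in replicate 4 against 3745 to 3756. Rps3a1 in ad libitum read 2810 in replicate 2 against 3166 to 3224. Rps6 in the restricted group read 95.8 in replicate 1 against 121 to 127. Rps9 in wild type read 2940 in replicate 4 against 2540.2 to 2582.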

How the results depend on the processing

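The median changes of the 47 genes kept their direction under every alternative except in restricted against wild type, which was -0.053 after quantile normalization. Quantile normalization also gave 0.028 in restricted against ad libitum and 0.050 in leptin against wild type. With single arrays left out, the median ranged from 0.17 to 0.24 in leptin against ad libitum, 0.09 to 0.15 in restricted against ad libitum, -0.07 to -0.02 in ad libitum against wild type, 0.04 to 0.12 in leptin against restricted, 0.13 to 0.22 in leptin against wild type and 0.06 to 0.11 in restricted against wild type. Genes called in leptin against ad libitum numbered 1 with the mean of all probe sets, 5 with an intensity trend in the prior, 1 with a pseudocount of 20, 2 after quantile normalization and 0 to 3 with single arrays left out, the 3 being without leptin replicate 3. In restricted against ad libitum they numbered 2 with arrays centred, 0 with the atrial covariate, 1 with only the groups compared, 1 without restricted replicates 2 and 3, and 0 to 4 with single arrays left out. The lowest counts were 0 without ad libitum replicate 3, 1 without ad libitum replicate 4 and 2 without restricted replicate 2. In leptin against restricted they numbered 1 with the atrial covariate, 2 with only the groups compared, 7 after quantile normalization, 1 without restricted replicates 2 and 3, and 2 to 5 with single arrays left out, being 2 without leptin replicate 1, leptin replicate 2 or restricted replicate 3. In restricted against wild type they numbered 2 with only the groups compared and 2 to 3 with single arrays left out, being 2 without wild-type replicate 2 or 4. Rpl3l was called in all 22 alternatives of leptin against restricted and all 21 of restricted against wild type, and in 15 of 21 of restricted against ad libitum. The replicate numbers as a block gave a median of 0.19 in leptin against ad libitum, with 0 called, and 4 called in leptin against restricted, where Rpl39 had an adjusted p of 0.0559.

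With the mean of all probe sets, Rps3 was -0.14 in leptin against ad libitum, -0.15 in leptin against restricted and -0.29 in leptin against wild type. Rpl13a was -0.0076 in restricted against ad libitum, 0.31 in leptin against restricted and -0.21 in restricted against wild type. Rps4x, with 1 of its 2 probe sets above the filter, was -0.079 in restricted against ad libitum. In ad libitum against wild type this setting gave -0.17 for Rps24, 0.036 for Rps18 and 0.0021 for Rps20. Without probe sets of the x type, Rps24 was -0.17 there and Rpl13a 0.083 in leptin against restricted. Quantile normalization gave -0.033 for Rps24, -0.063 for Rpl7a and -0.055 for Rps10 in ad libitum against wild type. With an array left out, Rps4l reached 0.0052 in leptin against ad libitum (range -0.17 to 0.0052), Rpl12 0.15 in restricted against ad libitum (range -0.29 to 0.15) and Rpl27a 0.0025 and 0.028 in restricted against wild type (range -0.091 to 0.028). Over all named genes and alternatives, 71 calls were lost, 17 were gained and 19 values changed sign. The causes were not tested.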

Other observations

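The 110 probe sets that match a ribosomal protein gene together with other symbols took no part in the tests. Of the 96 above the filter, 88 were above 0 in leptin against ad libitum, with a median log2 change of 0.24. In restricted against ad libitum 85 were above 0, with a median of 0.13, and in ad libitum against wild type 22 were above 0, with a median of -0.07. In leptin against restricted 75 were above 0, with a median of 0.08. These probe sets share arrays and partly transcripts with the 47 genes, so they are no independent sample.
The other probe sets of the genes that have several were 43, over 20 genes. In leptin against ad libitum 35 of them had the sign of the chosen probe set, with a median log2 change of 0.23, and in leptin against restricted 23 of 43 did, with a median of 0.08.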
